A study of Mus musculus with 12 samples.

Results

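The genes described here are those of the proteasome, the barrel-shaped protease that degrades ubiquitin-tagged proteins, in RNA-seq libraries of mouse alveolar macrophages. They were chosen by symbol: 48 of the 10631 genes in the deposited log2 table begin with Psm, one of the letters a to g and a digit. Of these, 5 encode the immunoproteasome (Psmb8, Psmb9, Psmb10, Psme1 and Psme2) and 42 encode the other subunits, activators and assembly chaperones of the proteasome. The remaining gene, Psmc3ip, matched by its name alone, since it encodes a meiotic recombination protein and not a subunit. All 48 genes were also in the deposited count table of 23413 genes and among the 12748 genes tested.

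The proteasome core is a stack of rings built from alpha and beta subunits, and its cutting sites lie on Psmb5, Psmb6 and Psmb7. Under interferon, and in many immune cells, Psmb8, Psmb9 and Psmb10 take their place, and the activator of Psme1 and Psme2 can cap the core, which changes the peptides made for MHC class I. The regulatory cap, with ATPase subunits (Psmc) and non-ATPase subunits (Psmd), binds, unfolds and feeds in tagged proteins. Alveolar macrophages are the resident phagocytes of the air spaces, and macrophages are known to express both forms.

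The series held 12 libraries in 6 groups of 2. Wild-type cells were cultured for 24 h with 50 nM vitamin D3, or for 24 h without it. Fresh cells came from Vdr knockout mice and from wild-type mice, each at 10 and at 4 weeks of age, and all cells were collected by lavage. No source used here gives the strain, the part of Vdr that was removed or the age of the mice that gave the cultured cells. Whether 2 libraries of a group are 2 animals is not in the labels, so a p-value refers to the spread between libraries, which may be technical. The question addressed by the series, from its title, is how vitamin D3 and its receptor act on these cells.

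Total counts were 10409572 to 23233674 per library, so 1 count was worth at most 0.0904 CPM (the library-size-scaled count, with TMM factors), and the proteasome genes took up little of them (0.301 to 0.433% for the 42 genes and 0.0337 to 0.0429% for the 5). Vdr, the targeted gene, was detected in all libraries labelled knockout. The 10-week values were 84.2 and 45.0 CPM in libraries labelled knockout, against 79.6 and 126.9 CPM in wild type, so replicate 1 of that label was within the wild-type range. At 4 weeks it had 45.9 and 31.3 CPM in libraries labelled knockout, against 56.5 and 57.7 CPM in wild type. In culture, Vdr had 72.1 and 42.4 CPM with vitamin D3, against 7.82 and 7.61 CPM without. Library titles carry numbers that begin with 10 (replicate 1 of the culture groups and of both 10-week genotypes, called 10xx here) or 58 (all others, 58xx). In the source names the second vitamin D3 library has the number 3 and the second untreated one the number 2. Description codes of 10-week replicate 1 of the knockout label and of 10-week wild-type replicate 2 name the opposite genotype. The former is the library with Vdr in the wild-type range, at 84.2 CPM, and the latter had Vdr at 126.9 CPM. At 10 weeks replicate 2 of both genotypes carried Xist at 787.3 and 800.3 CPM, while every other library had under 1 CPM. Alveolar macrophage markers summed to 12110 to 14000 CPM in the 4 culture libraries and to 23270 to 43040 CPM in the 8 fresh ones, and none of the tested markers was at 0.

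The upstream sequences of 4 genes are shown because these genes carry the main contrast between the proteasome classes, described further on: Psmb5 and Psmb6 (catalytic core subunits) and Psmd8 (a non-ATPase subunit of the cap) were higher in culture, and Psmb8 is the immune counterpart of Psmb5. Each is the 250 bases before the RefSeq start in build GRCm38.p6, 5′ to 3′ on the strand of the gene. Psmb6 lies at chr11:70525107-70525356 on the plus strand, Psmb5 at chr14:54617996-54618245 on the minus strand, Psmd8 at chr7:29180674-29180923 on the minus strand and Psmb8 at chr17:34197945-34198194 on the plus strand. Capitals mark the core of the antioxidant response element (TGACNNNGC, bound by NRF1 and NRF2) in Psmb6 and Psmb5.
Psmb6: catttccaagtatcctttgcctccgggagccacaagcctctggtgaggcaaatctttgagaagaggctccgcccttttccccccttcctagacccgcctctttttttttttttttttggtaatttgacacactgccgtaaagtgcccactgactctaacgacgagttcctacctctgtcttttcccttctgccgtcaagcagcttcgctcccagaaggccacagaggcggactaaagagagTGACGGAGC
Psmb5: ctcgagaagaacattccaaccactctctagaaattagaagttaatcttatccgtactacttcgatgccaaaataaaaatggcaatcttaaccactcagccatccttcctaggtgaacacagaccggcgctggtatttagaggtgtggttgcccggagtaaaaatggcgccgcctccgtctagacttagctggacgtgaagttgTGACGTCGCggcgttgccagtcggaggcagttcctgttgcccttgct
Psmd8: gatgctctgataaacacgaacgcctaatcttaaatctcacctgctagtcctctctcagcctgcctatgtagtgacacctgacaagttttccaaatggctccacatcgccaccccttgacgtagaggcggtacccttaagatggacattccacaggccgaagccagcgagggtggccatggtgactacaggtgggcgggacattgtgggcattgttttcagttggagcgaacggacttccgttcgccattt
Psmb8: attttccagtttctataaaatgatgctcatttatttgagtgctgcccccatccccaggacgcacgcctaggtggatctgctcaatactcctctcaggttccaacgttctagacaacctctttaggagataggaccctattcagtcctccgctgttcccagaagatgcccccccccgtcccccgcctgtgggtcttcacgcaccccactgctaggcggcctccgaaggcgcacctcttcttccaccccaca
A script searched both strands for 3 motifs, and Psmd8 and Psmb8 held none of them. The antioxidant response element core was in 0 of 5 immunoproteasome promoters, in 5 of 34 promoters of the other proteasome genes (Psmb5, Psmb6, Psmc6, Psmd9 and Psmd12) and in 11.5% of 27025 genes with a RefSeq promoter. The interferon-stimulated response element (TTTC, any 2 bases, TTTC) was in 0 of 5, in 3 of 34 (Psmb3, Psmd4 and Psmd9) and in 3.46% of all. The CCAAT box (CCAAT) was in 1 of 5 (Psmb9), in 12 of 34 and in 37.5% of all. In all, 40 of the 48 genes matched the promoter table, and the bases just after the RefSeq start of Psmb6 were in none of its GENCODE transcripts. The letters overlap no other motif marked in these windows, and a match is a description of the sequence only.

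Levels differed widely between members of the same complex. Compared per length, as CPM per kilobase of the principal transcript, the highest members in fresh 10-week wild-type cells were Psma1 at 94.1 ± 1.65, Psmb5 at 93.2 ± 9.16, Psmb3 at 89.8 ± 7.13 and Psma6 at 88.4 ± 10.7 (SD, n = 2), which did not differ beyond their spread. The activator genes Psme2 at 84.1 ± 2.90 and Psme1 at 82.9 ± 4.53 CPM per kilobase had ranks 6 and 8 of the 48. Psmb8 was at 60.5 ± 2.09 and Psmb10 at 53.3 ± 6.05 CPM per kilobase, and Psmb9 was lower, at 21.5 ± 1.37. Psmc3ip and Psma8, the testis form of an alpha subunit, were the lowest, at 1.48 ± 0.0106 and 1.34 ± 0.573 CPM per kilobase. Psmb11, the thymus form of a catalytic subunit, was not in the log2 table and had 1 to 18 counts per library. In untreated culture the order was led by Psmd8 at 268.2 ± 58.8, Psmb6 at 247.2 ± 72.4, Psmb5 at 204.1 ± 1.13 and Psme2 at 156.9 ± 4.74 CPM per kilobase.

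Over the 6 groups, 39 of the 48 genes differed between some groups (edgeR quasi-likelihood F test, Benjamini-Hochberg adjusted p under 0.05), against 58.2% of all genes tested. They were 36 of the 42 other proteasome genes, 2 of the 5 immunoproteasome genes (Psmb9 and Psme2) and Psmc3ip. The smallest p belonged to Psmd8, Psmb5, Psmd2 and Psmb6 (edgeR adjusted p = 1.14e-06, 1.47e-06, 1.63e-06 and 4.28e-06). The group mean was highest in the vitamin D3 culture for 34 of the 48 genes, and lowest in fresh 10-week wild type for 24. None of the 5 immunoproteasome genes was highest in the vitamin D3 culture. Summed over the 42 genes, levels were 4948 and 4761 CPM with vitamin D3 and 4300 and 4663 CPM in untreated culture, and the 8 fresh libraries lay between 2833 and 3458 CPM. The 5 immunoproteasome genes summed to 385.3 and 394.3 CPM with vitamin D3 and to 435.2 and 463.2 CPM in untreated culture, with the fresh libraries at 352.8 to 401.2 CPM. The sums of the 42 genes did not overlap between culture and fresh cells. For the 5 genes, on TMM-scaled CPM, the vitamin D3 libraries lay within the fresh range and the untreated ones above it. As shares of all counts, without TMM factors, the 5 genes had 0.0337 and 0.0348% with vitamin D3, below the fresh range of 0.0376 to 0.0429%. The untreated libraries, at 0.0384 and 0.0408%, then lay within that range. Psme2 alone had 147.8 and 154.2 CPM in untreated culture, against at most 92.3 CPM in fresh libraries.

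**Figure D1:**
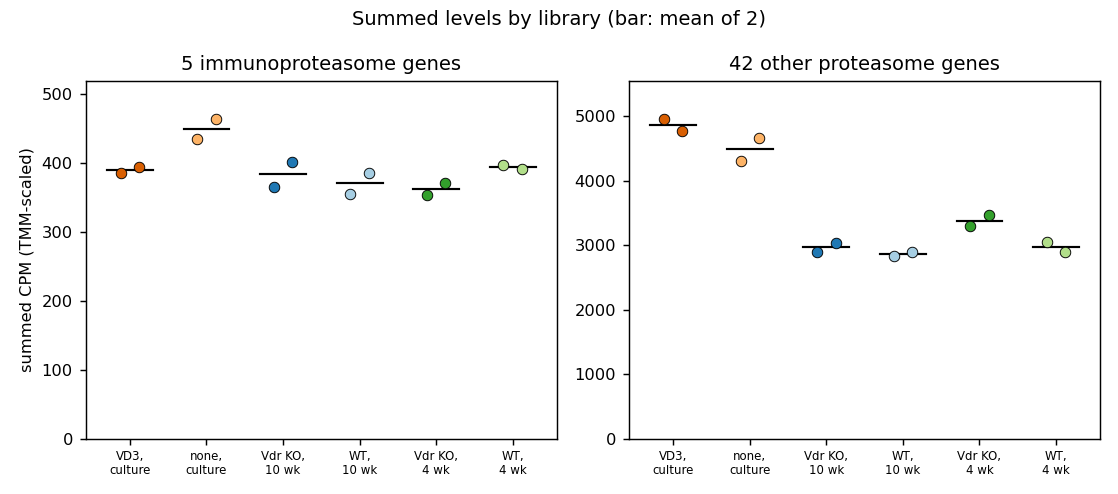
Summed TMM-scaled CPM of the 5 immunoproteasome genes (left) and the 42 other proteasome genes (right) in each library, with 1 point per library and a bar at the mean of 2. The 42 genes reach 4300 CPM or more in all 4 culture libraries and 3458 CPM or less in all 8 fresh ones, whereas the 5 immunoproteasome genes stay between 352.8 and 463.2 CPM.

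Culture for 24 h without vitamin D3 came with higher levels of most constitutive proteasome genes. Against fresh 10-week wild type, 32 of the 42 genes rose and 0 fell, and of the immunoproteasome genes 1 of 5 rose (Psme2) and 0 fell, whereas 21.2% of all genes tested rose and 21.2% fell. Against fresh 4-week wild type, 30 of the 42 rose and 0 fell, with again only Psme2 among the 5, against 20.1% and 19.5% of all genes. The median log2 fold change of the 42 genes was 0.49 at 10 weeks and 0.42 at 4 weeks, and that of the 5 was -0.01 and -0.07, beside -0.02 and -0.02 over all genes. With 1 library left out, the median of the 5 ran from -0.057 to 0.11 at 10 weeks and from -0.165 to 0.033 at 4 weeks, so it had no stable sign. These comparisons share the untreated culture libraries, and the age of the cultured animals is unknown, so that culture and age cannot be told apart in either. In bulk RNA, fewer cells of a type and less RNA per cell cannot be told apart.

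All 3 constitutive catalytic subunits rose. Psmb5, which carries the chymotrypsin-like site, had 182.8 and 184.2 CPM in untreated culture, against 77.9 and 89.6 CPM in 10-week and 104.6 and 97.6 CPM in 4-week fresh wild type. The culture libraries were above every fresh one, and the log2 fold change was 1.13 ± 0.11 against 10 weeks (SE, edgeR adjusted p = 1.34e-05) and 0.86 ± 0.11 against 4 weeks (edgeR adjusted p = 0.000103). Psmb6, with the caspase-like site, had 156.4 and 238.1 CPM in untreated culture, against 63.7 and 69.4 CPM at 10 weeks and 81.6 and 70.4 CPM at 4 weeks. Its culture libraries differed more between themselves than those of Psmb5, yet both lay above all fresh libraries, and it rose by 1.57 ± 0.18 and 1.38 ± 0.17 on the log2 scale (edgeR adjusted p = 3.01e-05 and 7.84e-05). Psmb7, with the trypsin-like site, had 108.1 and 122.9 CPM in untreated culture, against 70.2 and 77.3 CPM at 10 weeks and 67.6 and 70.1 CPM at 4 weeks. It rose by 0.65 ± 0.11 and 0.74 ± 0.11 on the log2 scale (edgeR adjusted p = 0.000519 and 0.000196).

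Their immune counterparts did not pass. Psmb8 had 90.5 and 104.1 CPM in untreated culture, against 96.0 and 100.8 CPM in 10-week and 104.7 and 99.5 CPM in 4-week fresh wild type, so the groups overlapped. Psmb10 had 66.9 and 71.9 CPM in untreated culture, against 64.3 and 75.5 CPM at 10 weeks and 80.5 and 77.8 CPM at 4 weeks. Psmb9 had 22.5 and 27.8 CPM in untreated culture, against 27.8 and 30.4 CPM at 10 weeks and 30.4 and 31.7 CPM at 4 weeks. Culture was at or below the fresh libraries for Psmb9, by -0.21 ± 0.14 and -0.31 ± 0.14 on the log2 scale (edgeR adjusted p = 0.253 and 0.104). The activator subunits differed from each other. Psme2 had 147.8 and 154.2 CPM in untreated culture, against 78.9 and 82.9 CPM at 10 weeks and 87.9 and 86.1 CPM at 4 weeks, and rose by 0.90 ± 0.09 and 0.80 ± 0.09 on the log2 scale (edgeR adjusted p = 1.41e-05 and 3.66e-05). Psme1, its partner, had 107.5 and 105.3 CPM in untreated culture, against 88.6 and 95.7 CPM at 10 weeks and 93.6 and 96.3 CPM at 4 weeks; its log2 fold changes of 0.21 and 0.16 did not pass. Psme2 has a near-identical gene, Psme2b (99.4% identity over 794 bases), with no row of its own in the counts, so its value may hold reads of both.

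**Figure D2:**
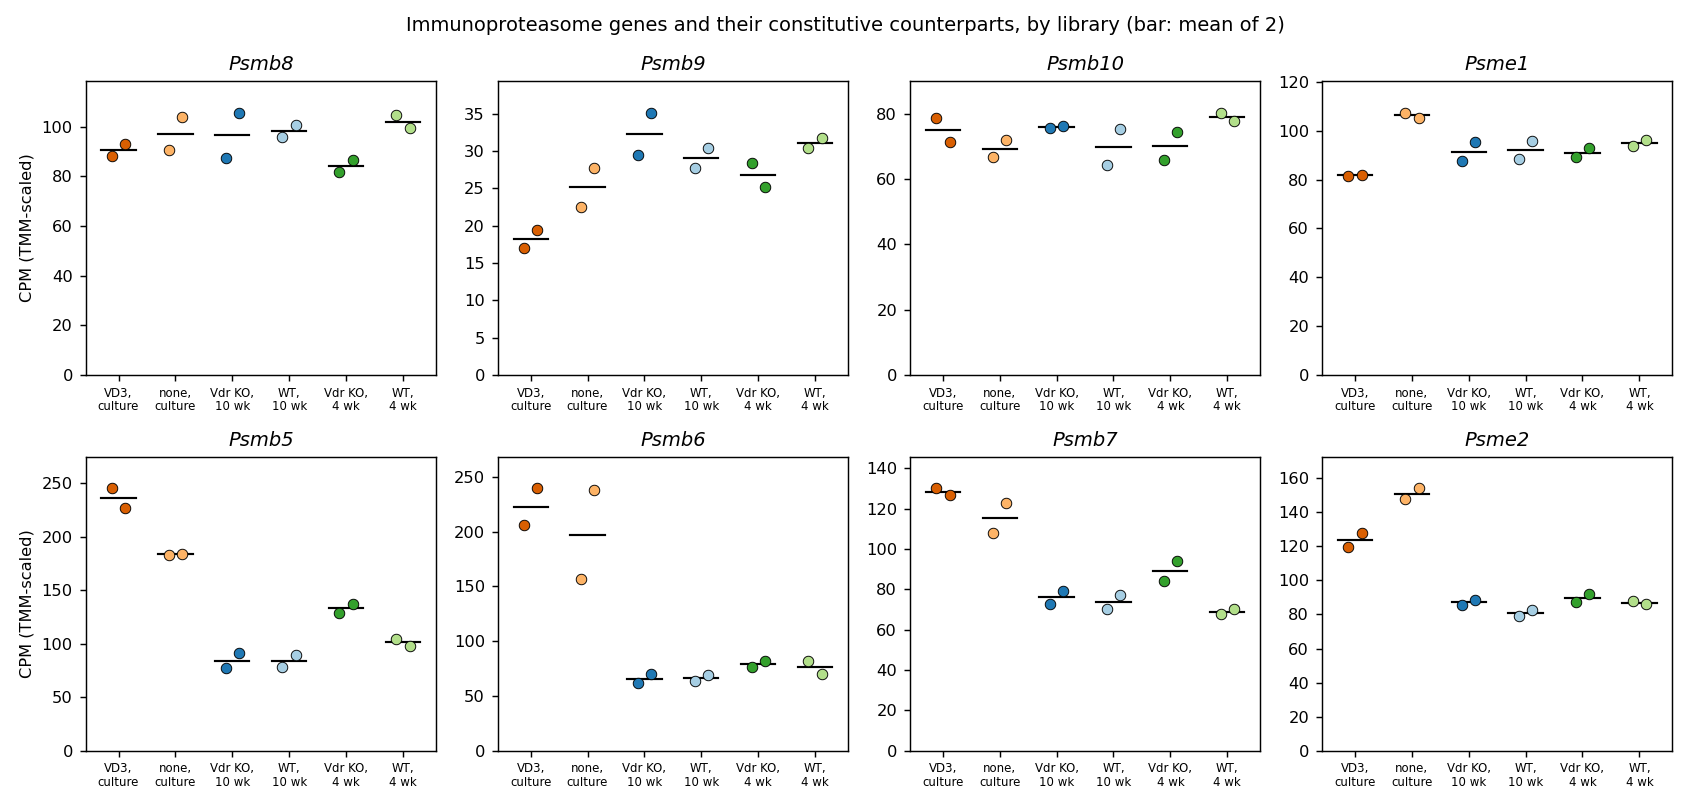
TMM-scaled CPM by library for the immunoproteasome genes and their constitutive counterparts, with 1 point per library and a bar at the mean of 2. Psmb5, Psmb6 and Psmb7 are above every fresh library in all 4 culture libraries, Psmb8 and Psmb10 overlap between culture and fresh cells, and Psmb9 is lowest with vitamin D3.

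The ratio of each immune subunit to its counterpart, both per kilobase, describes this split and carries no test. Psmb8 over Psmb5 was 0.198 and 0.227 with vitamin D3 and 0.273 and 0.312 in untreated culture. In fresh cells it was 0.628 and 0.640 in 10-week libraries labelled knockout, 0.680 and 0.621 in 10-week wild type, 0.352 and 0.348 in 4-week libraries labelled knockout and 0.552 and 0.563 in 4-week wild type. All 4 culture values lay below all 8 fresh ones. Psmb9 over Psmb6 was 0.0487 and 0.0479 with vitamin D3 and 0.0849 and 0.0688 in untreated culture, and at least 0.181 in every fresh library. Psmb10 over Psmb7 ran from 0.499 to 0.547 in culture and from 0.694 to 1.05 in fresh cells, and within the fresh cells it was lowest in 4-week libraries labelled knockout (0.694 and 0.702).

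**Figure D3:**
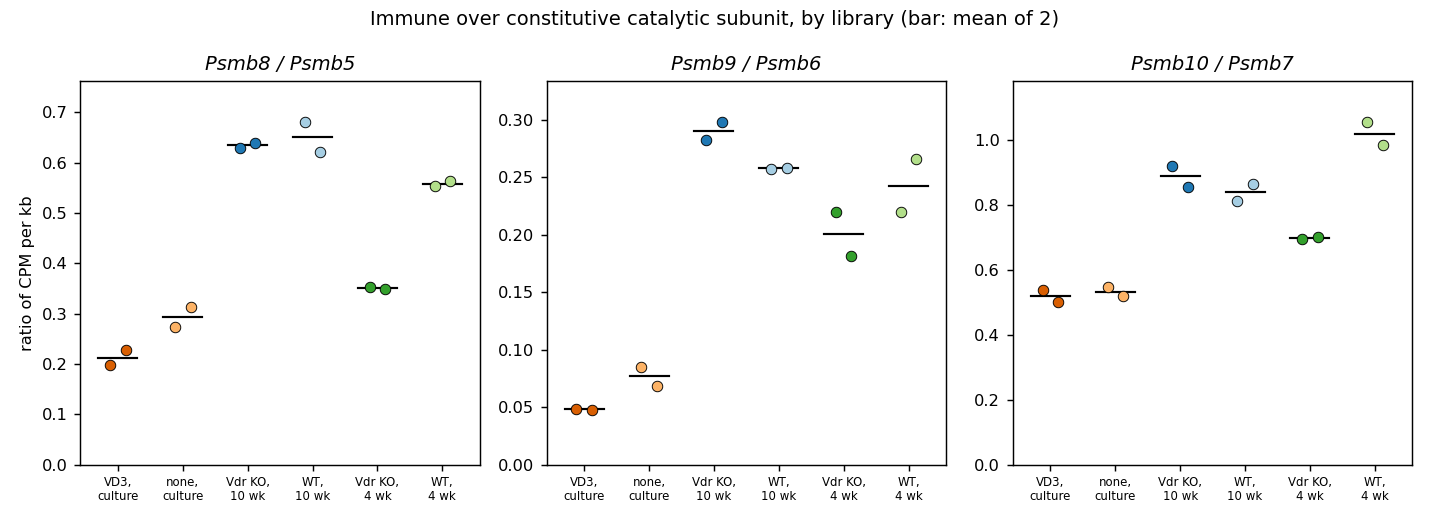
Ratio of CPM per kilobase of each immune catalytic subunit to its constitutive counterpart, with 1 point per library and a bar at the mean of 2. The 4 culture libraries are the lowest in each panel, and for Psmb8 over Psmb5 and Psmb10 over Psmb7 the 4-week libraries labelled knockout are the lowest of the fresh ones.

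Within the cap, Psmd8 (a lid subunit) had the largest log2 fold change of all 48 genes in culture. It had 348.9 and 477.1 CPM in untreated culture, against 114.7 and 103.5 CPM in 10-week and 129.3 and 122.7 CPM in 4-week fresh wild type, with no overlap. It rose by 1.92 ± 0.18 and 1.71 ± 0.18 on the log2 scale (edgeR adjusted p = 7.05e-06 and 1.61e-05), or 3.78-fold at 10 weeks. Psmd2, the base subunit that docks ubiquitin receptors, had 400.0 and 422.3 CPM in untreated culture, against 221.3 and 214.3 CPM at 10 weeks and 214.3 and 212.0 CPM at 4 weeks. Psmd2 rose by 0.92 ± 0.08 and 0.95 ± 0.08 on the log2 scale (edgeR adjusted p = 7.29e-06 and 5.93e-06). Psmd10 (gankyrin, an assembly chaperone of the cap) had 53.0 and 51.7 CPM in untreated culture, against 22.5 and 26.4 CPM at 10 weeks and 27.8 and 24.5 CPM at 4 weeks, and rose on the log2 scale by 1.10 ± 0.12 and 1.0 ± 0.12 (edgeR adjusted p = 2.45e-05 and 4.93e-05). Counts of Psmb5 and Psmd2 are also uncertain in part, since each has a near-identical pseudogene (98.9% over 796 bases and 96.4% over 2726 bases).

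By role, all 6 ATPases rose against both ages, with a median log2 fold change of 0.48 at 10 weeks and 0.45 at 4 weeks. Of the non-ATPases, 10 of 11 rose at 10 weeks and 9 of 11 at 4 weeks. Of the alpha subunits, 6 of 8 rose at 10 weeks and 7 of 8 at 4 weeks, while Psma8, the least expressed of them, did not pass. All 4 non-catalytic beta subunits rose at 10 weeks, but only 2 of 4 at 4 weeks (Psmb1 and Psmb4). Assembly and regulatory factors moved less often past the threshold, without a test of that difference: of the core chaperones Psmg1 to Psmg4, 1 of 4 rose at 10 weeks (Psmg1) and 0 of 4 at 4 weeks. Of the cap chaperones, Psmd9 and Psmd10 rose against both ages and Psmd5 did not pass, with log2 fold changes of -0.09 and -0.20. Of Psme3, Psme4 (activators found mainly in the nucleus) and the inhibitor Psmf1, 0 of 3 passed at 10 weeks and 1 of 3 at 4 weeks (Psme4, at 0.62). Across all culture and fresh groups, 29 of the 42 genes and 1 of the 5 (Psme2) had every culture library above every fresh library, against 18.2% of all genes tested, and 0 of the 47 had the reverse, against 16.6%.

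**Figure D4:**
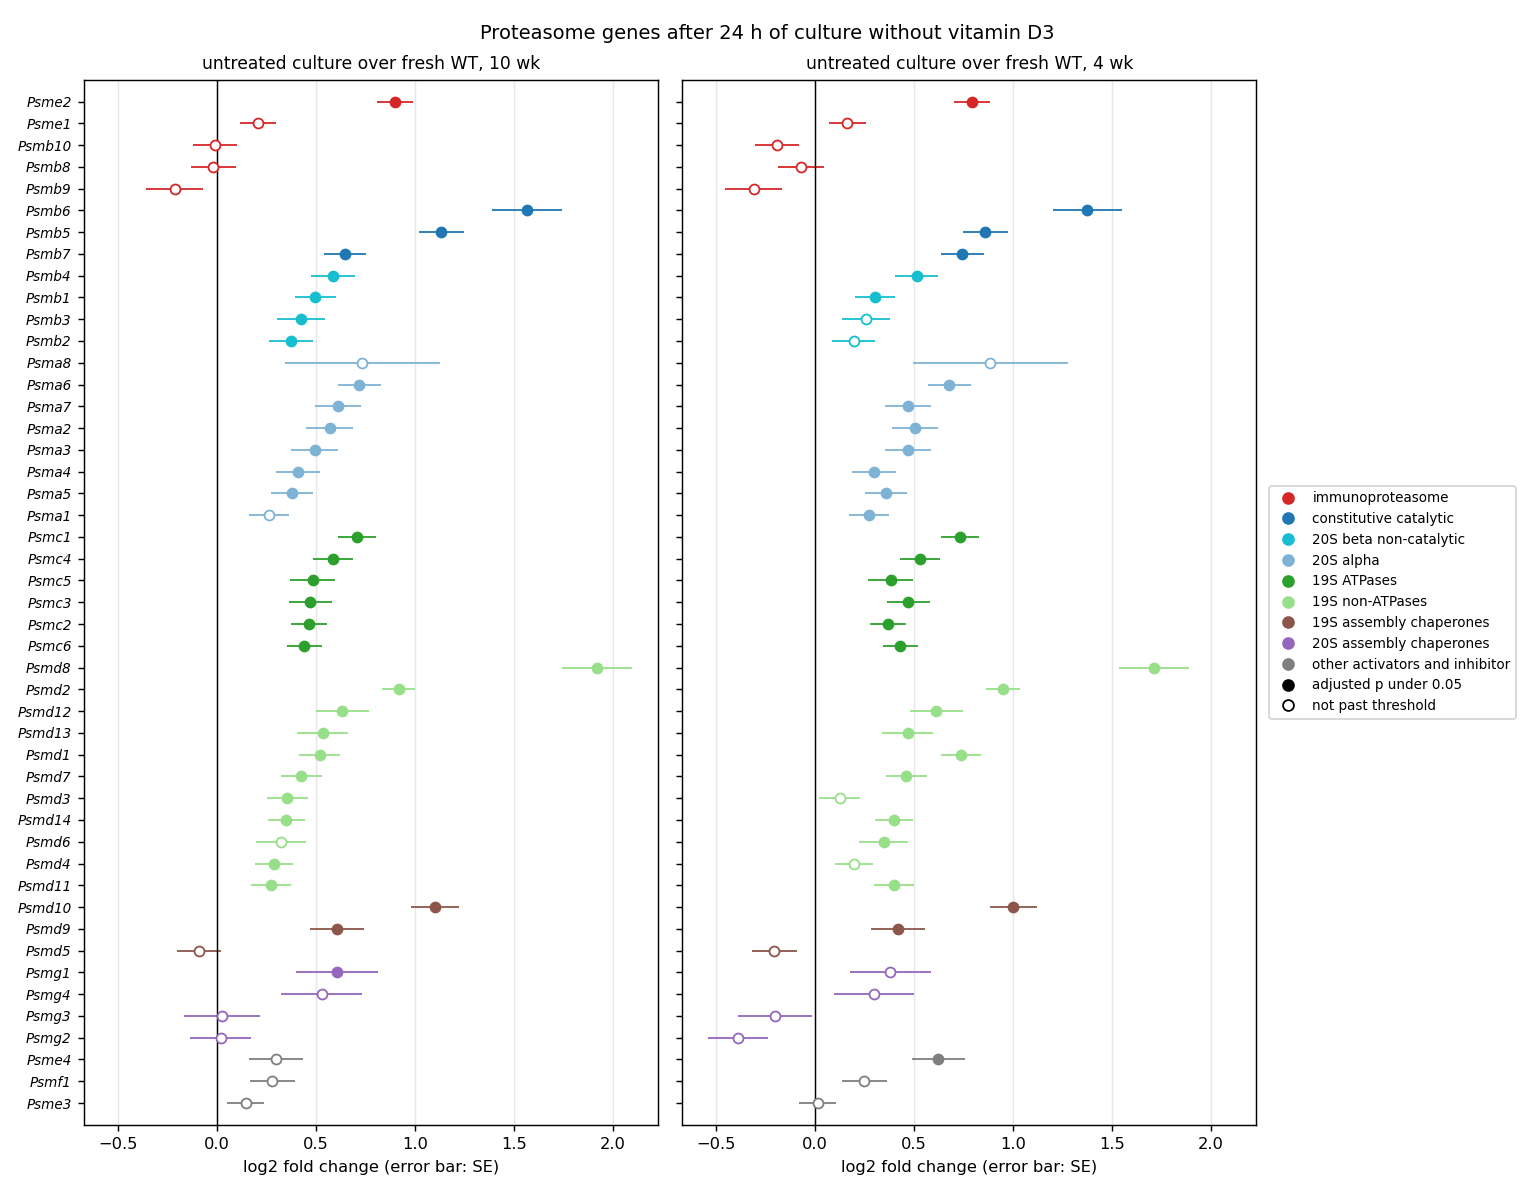
Log2 fold change of untreated culture over fresh wild type at 10 weeks (left) and 4 weeks (right) for the 47 proteasome genes, coloured by role, with SE as error bars. Filled points passed the adjusted p of 0.05; Psmd8 and Psmb6 lie furthest right in both panels, and Psmb8, Psmb9 and Psmb10 lie near or left of 0.

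The size of the culture contrast rests on the scaling. TMM factors were 0.875 to 0.884 in culture and 1.05 to 1.10 in fresh libraries, and taking total counts as library sizes moved every culture contrast by -0.29 on the log2 scale, with the median of all genes at -0.31 and -0.30. Then 12 of the 42 rose and 1 fell against 10 weeks, and 10 rose and 3 fell against 4 weeks. The medians of the 42 were 0.20 and 0.14. The shares of all genes that rose or fell under that scaling are not given, so calls under it have no background here. Psme2 still rose (0.61 and 0.51), and Psmb9 (-0.50 and -0.60) and Psmb10 (-0.30 and -0.48) fell against both ages (edgeR adjusted p = 0.0168 and 0.00664 for Psmb9, 0.0467 and 0.00459 for Psmb10). Psmb8 fell at 4 weeks only (-0.36, edgeR adjusted p = 0.0262; at 10 weeks -0.30, edgeR adjusted p = 0.0501). At 10 weeks Psmb8 and Psmb10, at -0.30 each, thus stood close to the median of all genes under that scaling, at -0.31. Within the title-number series, the median of the 42 genes for culture over 10-week wild type was 0.44 in the 10xx pair and 0.51 in the 58xx pair, and that of the 5 was 0.06 and 0.05. In the 58xx pair the fresh library was among those that carried Xist and the culture library was not, so this pair differs in more than culture.

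Markers of other cells moved with the same contrast. Epithelial markers summed to 9.39 to 14.5 CPM in culture and 45.2 to 414.4 CPM in fresh libraries, and erythroid markers to 0.541 to 1.86 CPM and 48.2 to 3148 CPM. Of the tested markers, 5 of 8 epithelial, 4 of 5 erythroid, 6 of 8 dendritic cell and 4 of 9 T cell ones fell against 10 weeks. So did 6 of 11 alveolar macrophage and 1 of 3 neutrophil ones. In the other direction, 2 of 11 alveolar macrophage, 1 of 9 T cell and 1 of 3 neutrophil markers rose. Over all genes tested, 21.2% rose and 21.2% fell. In each culture library 3 of 5 erythroid markers were at 0. Dendritic cell markers summed to 28.8 to 40.6 CPM in culture and 22.7 to 111.7 CPM in fresh libraries, T cell markers to 153.1 to 273.4 and 133.6 to 266.5 CPM, neutrophil markers to 18.3 to 26.1 and 27.0 to 46.0 CPM, and B cell markers to at most 0.141 and 5.59 CPM. Their part in the proteasome values was not tested.

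The genes around the proteasome were measured from a written list. Beside the counts that follow, 21.2% of all genes tested rose and 21.2% fell in culture against 10 weeks. Against 4 weeks these shares were 20.1% and 19.5%. Of 19 tested partners outside the Psm names, 8 rose and 3 fell in culture against 10 weeks, and 7 rose and 4 fell against 4 weeks. Pomp, the maturation chaperone that completes the core, rose by 0.92 ± 0.10 and 0.76 ± 0.10 on the log2 scale (edgeR adjusted p = 1.8e-05 and 7.46e-05), and Zfand5, a protein that stimulates the proteasome, by 1.42 ± 0.11 and 1.47 ± 0.11. Shfm1, a small subunit of the cap, rose by 0.65 at 10 weeks, while Ubqln1, a shuttle for tagged proteins, fell by 0.52 and 0.73. Of 12 genes of MHC class I peptide supply, 6 rose and 2 fell against each age. The chaperone gene Calr (0.84 and 0.97) and H2-D1 (0.76 and 0.85) rose, and the peptide transporter genes Tap1 (-0.60 and -0.76) and Tap2 (-0.52 and -0.56) fell. Of 13 interferon signalling genes, 4 rose and 6 fell at 10 weeks and 5 rose and 4 fell at 4 weeks. The receptor genes Ifngr1 (-1.26 and -0.73) and Ifngr2 (0.70 and 0.92) moved in opposite directions, and Socs1, an inhibitor of the pathway, fell by 2.92 and 2.29.

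Vitamin D3 in culture was followed by 1 call among the 48 genes, Psme1, which fell, whereas 10.6% of all genes tested passed and 5.63% fell. Psme1 had 81.5 and 82.0 CPM with vitamin D3, against 107.5 and 105.3 CPM without. The groups did not overlap, and the log2 difference was -0.38 ± 0.09 (edgeR adjusted p = 0.0212). The call was lost when any 1 of the 4 culture libraries was left out (edgeR adjusted p = 0.0514 to 0.126) and when only the culture groups were fitted (edgeR adjusted p = 0.136), with log2 fold changes of -0.36 to -0.39. Within title series Psme1 differed by -0.40 in the 10xx pair and by -0.36 in the 58xx pair.

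The other immunoproteasome genes did not pass with vitamin D3. Psmb9 had 17.02 and 19.46 CPM with vitamin D3, against 22.5 and 27.8 CPM without, differing by -0.46 ± 0.15 on the log2 scale (edgeR adjusted p = 0.067). Psme2 had 119.7 and 128.1 CPM with vitamin D3, against 147.8 and 154.2 CPM without, differing by -0.28 ± 0.09 on the log2 scale (edgeR adjusted p = 0.0702). In both the groups were apart, and neither passed the threshold in this fit, which has no block. Psmb8 had 88.1 and 93.3 CPM with vitamin D3, against 90.5 and 104.1 CPM without, and Psmb10 had 78.9 and 71.4 CPM, against 66.9 and 71.9 CPM, so both overlapped. The median log2 fold change of the 5 was -0.28, and under the 14 alternatives it lay between -0.33 and -0.24.

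The 42 other genes had a median log2 fold change of 0.16 with vitamin D3, beside 0 over all genes, and 36 of the 42 had positive values, though 0 passed by edgeR (4 at an unadjusted p under 0.05), 1 by DESeq2 and 0 by limma. That median was 0.068 without untreated replicate 1 and 0.093 without vitamin D3 replicate 1, with 31 of the 42 positive in each case. Psmb5 had 245.4 and 227.3 CPM with vitamin D3, against 182.8 and 184.2 CPM without, differing by 0.36 ± 0.11 on the log2 scale (edgeR adjusted p = 0.0612), and it was the gene that passed by DESeq2 (adjusted p = 0.0318). Psmb6 had 206.1 and 239.8 CPM with vitamin D3, against 156.4 and 238.1 CPM without, and Psmb7 had 130.1 and 126.5 CPM, against 108.1 and 122.9 CPM. Psmd8 had 448.4 and 496.8 CPM with vitamin D3, against 348.9 and 477.1 CPM without. For Psmb6 and Psmd8 the untreated replicates were further apart than the group means. Within title series the median of the 42 was 0.23 in the 10xx pair and 0.04 in the 58xx pair, and 13 of the 42 genes had opposite signs in the 2 pairs. In the vitamin D3 groups 23 of the 48 genes were above the untreated libraries without overlap and 5 below, against 24.2% and 24.7% of all genes. Of the written lists, B2m, the light chain of MHC class I, fell by 0.45 on the log2 scale (edgeR adjusted p = 0.0269), and the interferon signalling genes Stat2 and Jak2 fell by 0.41 and 0.51 (edgeR adjusted p = 0.0188 and 0.0241). None of the 19 partners passed by edgeR, with 0 at an unadjusted p under 0.05.

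In fresh 4-week cells, 0 of the 48 genes passed between libraries labelled knockout and wild type by edgeR, against 0.667% of all genes tested. There were 11 with an unadjusted p under 0.05, while 2 passed by DESeq2 and 0 by limma. The shares of all genes under those other rules are not given, so these counts have no background here. Of the 42 genes, 39 had positive log2 fold changes, with a median of 0.16, whereas 4 of the 5 immunoproteasome genes had negative ones, with a median of -0.17, beside -0.01 over all genes. Without replicate 1 of the knockout label the median of the 5 was -0.084. Psma6, an alpha subunit, had the smallest p: 128.5 and 129.1 CPM in libraries labelled knockout, against 98.9 and 90.5 CPM in wild type, with no overlap and a log2 difference of 0.44 ± 0.11 (edgeR adjusted p = 0.110). Psma6 and Psma5 were the genes past the threshold by DESeq2 (adjusted p = 0.0135 and 0.0486). In the other direction, Psmb8 had 82.0 and 86.5 CPM in libraries labelled knockout, against 104.7 and 99.5 CPM in wild type, differing by -0.28 ± 0.11 on the log2 scale (edgeR adjusted p = 0.363). Psmb9 had 28.3 and 25.2 CPM, against 30.4 and 31.7 CPM, and Psmb10 65.8 and 74.6 CPM, against 80.5 and 77.8 CPM, so all 3 immune catalytic genes lay below wild type without overlap and without passing.

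The constitutive counterparts lay on the other side at 4 weeks. Psmb5 had 128.6 and 137.3 CPM in libraries labelled knockout, against 104.6 and 97.6 CPM in wild type, differing by 0.40 ± 0.11 on the log2 scale (edgeR adjusted p = 0.178). Psmb7 had 84.0 and 94.1 CPM in libraries labelled knockout, against 67.6 and 70.1 CPM in wild type, differing by 0.37 ± 0.11 on the log2 scale (edgeR adjusted p = 0.182). Psmb6 had 76.1 and 82.0 CPM, against 81.6 and 70.4 CPM, and overlapped. Without overlap, 30 of the 48 genes lay above wild type and 5 below, against 24.0% and 24.6% of all genes. Erythroid markers summed to 347.8 and 642.7 CPM in libraries labelled knockout, against 3148 and 1330 CPM in wild type. T cell markers summed to 133.6 and 144.1 CPM, against 221.8 and 188.6 CPM, and dendritic cell markers to 22.74 and 38.25 CPM, against 111.7 and 39.49 CPM. Higher were alveolar macrophage markers, at 30920 and 43040 CPM, against 29430 and 26800 CPM, and neutrophil markers, at 41.89 and 37.2 CPM, against 32.7 and 30.56 CPM. Epithelial and B cell sums overlapped. The part of these markers in the proteasome values was not tested. None of the genes on the written lists of partners, MHC class I supply and interferon signalling passed at 4 weeks by edgeR, with 4 of 19, 2 of 12 and 0 of 13 at an unadjusted p under 0.05.

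At 10 weeks, 0 of the 48 genes passed between libraries labelled knockout and wild type by edgeR, DESeq2 or limma, against 0.110% of all genes, and 1 had an unadjusted p under 0.05. That gene, Psmd9, a cap chaperone, had 22.0 and 24.2 CPM in libraries labelled knockout, against 20.2 and 16.1 CPM in wild type, differing by 0.34 ± 0.14 on the log2 scale (edgeR adjusted p = 0.436). It differed by 0.12 within the 10xx pair and by 0.59 within the 58xx pair. In the other direction, Psmd11, a lid subunit, had 53.0 and 53.4 CPM in libraries labelled knockout, against 60.6 and 57.9 CPM in wild type, differing by -0.16 ± 0.10 on the log2 scale (edgeR adjusted p = 0.692). The median was 0.04 over the 42 genes and 0.11 over the 5, but 0.013 and 0.011 without wild-type replicate 1 and 0.023 and 0.022 without replicate 2 of the knockout label. Of all members, 14 of the 48 lay above and 5 below wild type without overlap, against 19.7% and 20.9% of all genes.

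The immunoproteasome genes were close to wild type at 10 weeks. Psmb8 had 87.4 and 105.8 CPM in libraries labelled knockout, against 96.0 and 100.8 CPM in wild type. Psmb9 had 29.5 and 35.2 CPM, against 27.8 and 30.4 CPM, and Psmb10 had 75.7 and 76.4 CPM, against 64.3 and 75.5 CPM. Psme1 had 87.7 and 95.2 CPM, against 88.6 and 95.7 CPM, and Psme2 had 85.4 and 88.6 CPM, against 78.9 and 82.9 CPM. The constitutive genes were as close, with Psmb5 at 76.8 and 91.4 CPM, against 77.9 and 89.6 CPM, Psmb6 at 61.6 and 69.6 CPM, against 63.7 and 69.4 CPM, and Psmb7 at 72.8 and 79.0 CPM, against 70.2 and 77.3 CPM. With the 2 libraries of conflicting codes exchanged, 0 of the 48 genes passed. The exchanged knockout group then held both libraries that carried Xist, and the exchanged wild-type group neither of them. The title series were split in the same way. Genotype therefore cannot be told apart from Xist and series after the exchange, and that fit cannot decide whether genotype matters.

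Over both ages, 0 of the 48 genes passed by edgeR, against 0.996% of all genes; 8 had an unadjusted p under 0.05, 1 passed by DESeq2 (Psma6, adjusted p = 0.0122) and 0 by limma. Psma6 differed by 0.31 ± 0.08 on the log2 scale (edgeR adjusted p = 0.0877) and Psmb8 by -0.15 ± 0.08 (edgeR adjusted p = 0.467). From the written lists, Zfand5 rose by 0.43 (edgeR adjusted p = 0.0305) and H2-K1, an MHC class I heavy chain, fell by 0.31 (edgeR adjusted p = 0.0429). The difference between the 10-week and the 4-week knockout effect passed for 0 of the 48 genes by edgeR, DESeq2 or limma, against 0.188% of all genes, with 5 at an unadjusted p under 0.05. All 5 immunoproteasome genes had positive values of this difference (median 0.25, or 0.104 without 10-week replicate 2 of the knockout label) and 31 of the 42 others negative ones (median -0.14). Psma5 had the smallest p, at -0.51 ± 0.15 (edgeR adjusted p = 0.356), and Psmb10 the smallest among positive values, at 0.30 ± 0.15 (edgeR adjusted p = 0.639).

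**Figure D5:**
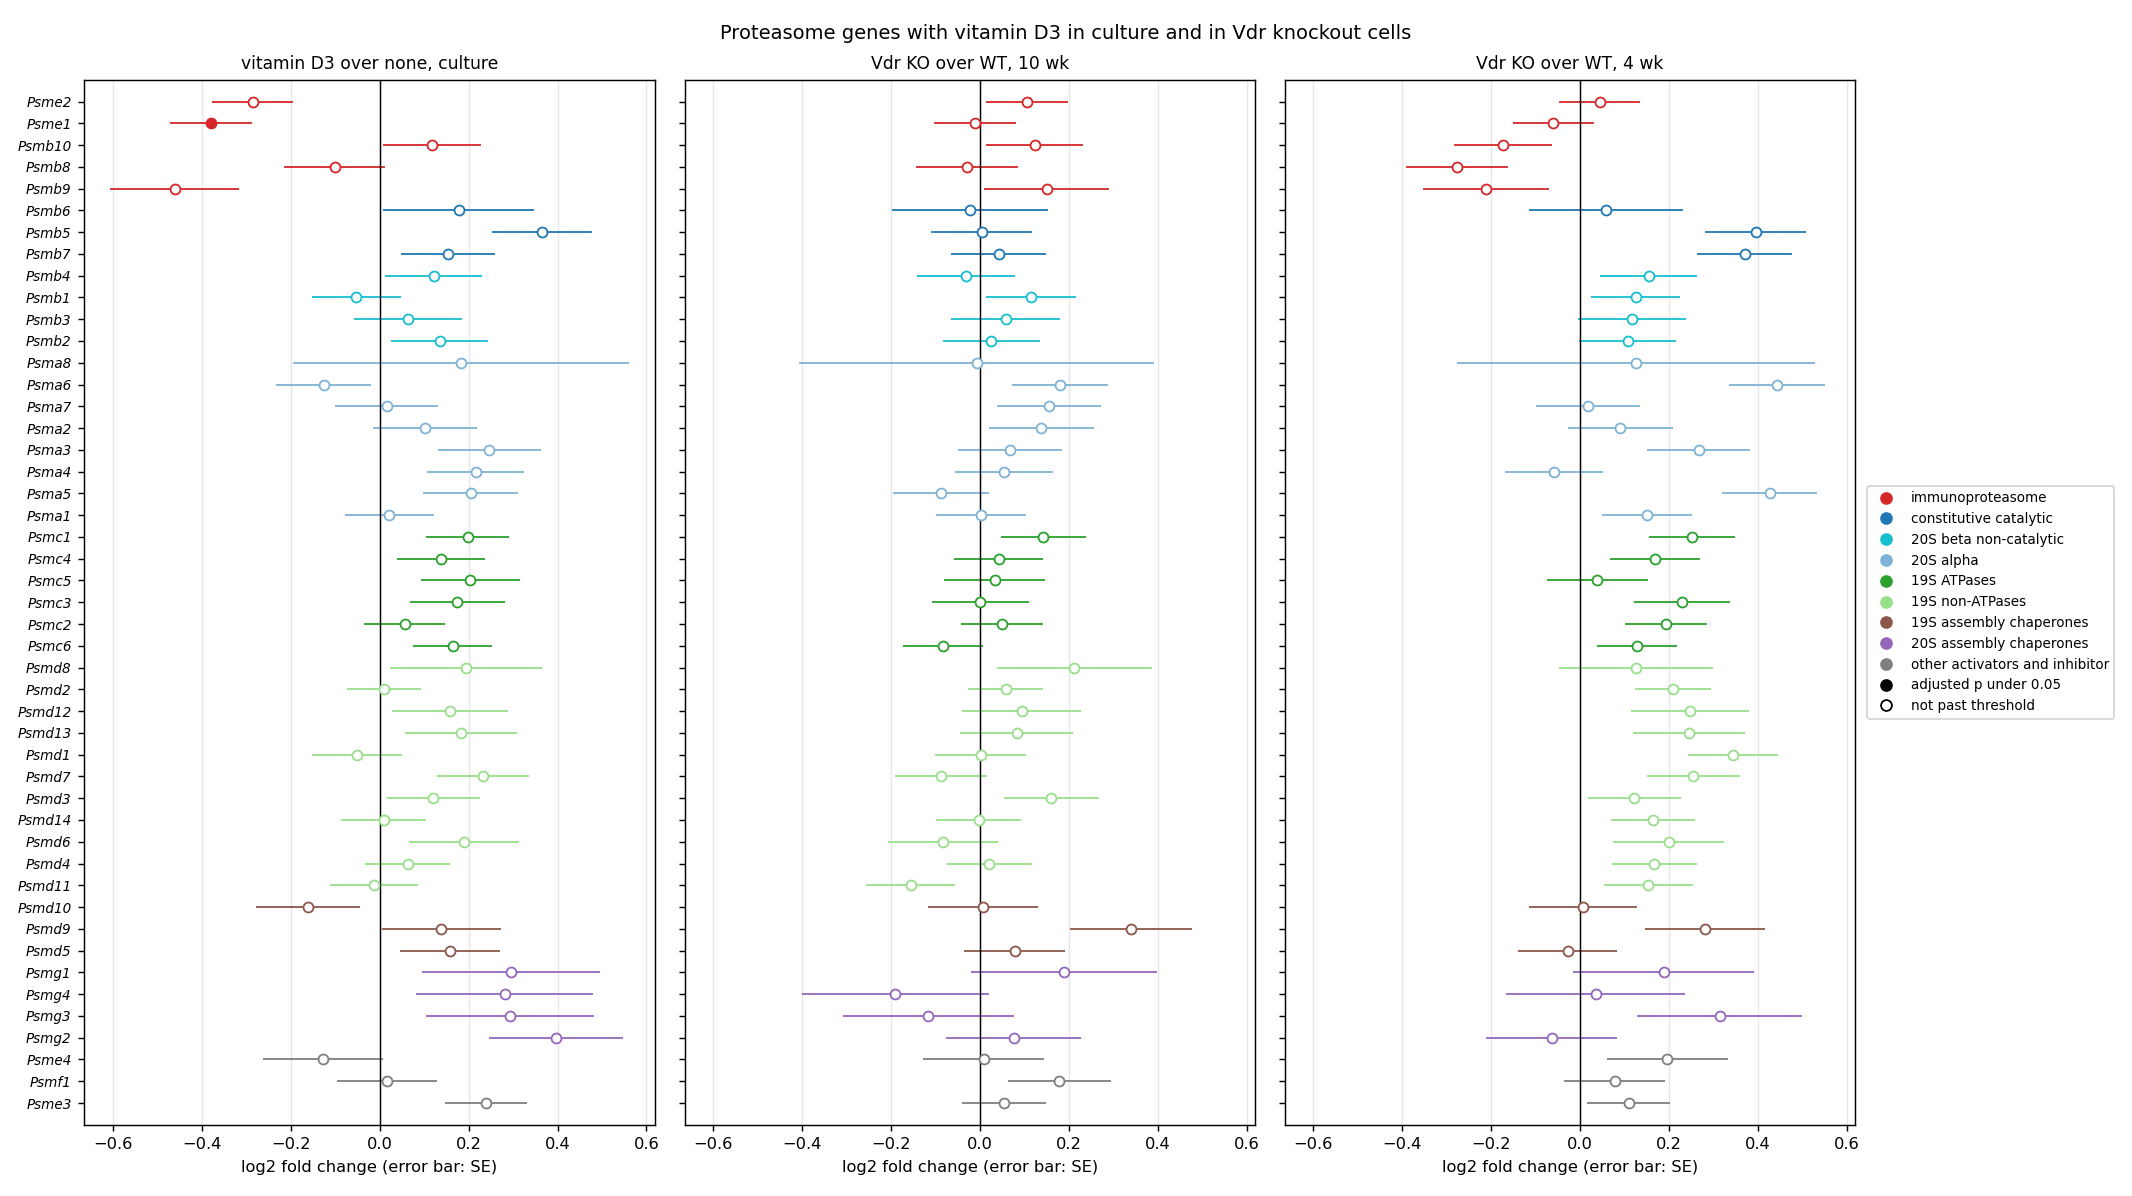
Log2 fold change, with SE as error bars, of vitamin D3 over none in culture (left), and of libraries labelled Vdr knockout over wild type at 10 weeks (middle) and 4 weeks (right), for the 47 proteasome genes coloured by role. Psme1 with vitamin D3 is the single filled point (adjusted p under 0.05); 36 of the 42 other genes in the left panel and 39 of 42 in the right panel have positive values that did not pass.

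Age was compared within genotype. The 4-week libraries were all of the same title series, and none of them carried Xist. At 10 weeks, replicate 1 of each genotype was of the other series, and replicate 2 carried Xist. No 10-week library thus matched the 4-week ones in both. In either genotype, age therefore cannot be told apart from series and Xist, and the differences below are not shown to be those of age. In libraries labelled knockout, 10 weeks against 4 weeks gave 2 calls among the 48 genes, both lower, against 4.89% of all genes higher and 4.83% lower. Psmb5 had 76.8 and 91.4 CPM at 10 weeks, against 128.6 and 137.3 CPM at 4 weeks, differing by -0.66 ± 0.11 on the log2 scale (edgeR adjusted p = 0.00503). Psma5, an alpha subunit, had 53.5 and 57.1 CPM at 10 weeks, against 74.5 and 85.5 CPM at 4 weeks, differing by -0.53 ± 0.11 on the log2 scale (edgeR adjusted p = 0.0111). In neither did the groups overlap. Leaving out 4-week replicate 2 of that label ended both calls, and leaving out 10-week replicate 1, the library with Vdr in the wild-type range, ended that of Psma5. DESeq2 and limma each gave 3 calls, the third being Psmg3, a core chaperone. Psmg3 had 10.4 and 9.85 CPM at 10 weeks, against 14.2 and 17.9 CPM at 4 weeks, and just missed the threshold here (edgeR adjusted p = 0.0504). Of the 42 genes, 38 had negative values, with a median of -0.20, and 4 of the 5 immunoproteasome genes had positive ones, with a median of 0.12, beside 0.01 over all genes. The median of the 5 was 0.029 without 4-week replicate 1 and 0.054 without 10-week replicate 2. Without overlap, 31 of the 48 genes lay below and 4 above, against 27.9% and 29.4% of all genes.

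Other genes moved in the same comparison. Of the partners, Pomp and Ubqln1 fell by 0.39 and 0.44 on the log2 scale and Zfand5 and Zfand2a, both proteasome-binding zinc finger genes, rose by 0.42 and 0.46 (edgeR adjusted p = 0.0299, 0.0123, 0.0341 and 0.0358). Ifngr1 rose by 0.52 (edgeR adjusted p = 0.022). Of the markers, 3 of 5 erythroid ones fell and 2 of 8 epithelial ones rose. Among 11 alveolar macrophage markers, 2 rose and 2 fell. Past the threshold as well, 1 of 9 T cell and 1 of 8 dendritic cell markers rose, and 1 of 3 neutrophil markers fell. Over all genes tested, 4.89% rose and 4.83% fell. Epithelial markers summed to 414.4 and 303.2 CPM at 10 weeks, against 58.8 and 220.0 CPM at 4 weeks, and erythroid markers to 48.2 and 53.0 CPM, against 347.8 and 642.7 CPM; their part in the proteasome values was not tested.

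In wild type, 10 weeks against 4 weeks gave 0 calls among the 48 genes by edgeR, DESeq2 or limma, against 2.11% of all genes, with 4 at an unadjusted p under 0.05. Psmg2, a core chaperone, had 13.1 and 14.4 CPM at 10 weeks, against 17.4 and 18.9 CPM at 4 weeks, differing by -0.41 ± 0.15 on the log2 scale (edgeR adjusted p = 0.175). Psme4, the nuclear activator, had 100.7 and 80.9 CPM at 10 weeks, against 68.3 and 76.8 CPM at 4 weeks, differing by 0.32 ± 0.14 on the log2 scale (edgeR adjusted p = 0.226). Psmb5 had 77.9 and 89.6 CPM at 10 weeks, against 104.6 and 97.6 CPM at 4 weeks, and its value of -0.27 ± 0.11 did not pass (edgeR adjusted p = 0.225). The median was -0.07 over the 42 genes and -0.10 over the 5, beside -0.003 over all genes. These medians were -0.035 and -0.029 without 10-week replicate 1, and that of the 42 was -0.017 without 4-week replicate 1. Ifngr1 rose by 0.54 (edgeR adjusted p = 0.0457), and it was the only gene of the written lists to pass here by edgeR.

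Some members share reads with other genes. By the GENCODE vM21 annotation, Psmb9 overlaps Tap1 on the opposite strand by 212 exon bases and Psmb7 overlaps Nek6 by 405, and no source used here gives the strand setting of the authors' counting, so reads of these pairs may not be separated. Psmb9 and Tap1 are neighbours in the MHC region and are known to be transcribed from a shared promoter region. Psmd11 has a near-identical transcript, A730017L22Rik (97.9% identity over 1501 bases), with 3834 counts of its own over the libraries. Of the 48 genes, 12 matched a transcript of another gene at 95% identity over 300 bases or more. For Psmc3ip, Psmd1 and Psmd13 the match was with a gene whose exons overlap theirs (Mlx, Gm21972 and Sirt3), and not with a separate copy.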

How the data were processed

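RNA-seq was measured in 12 libraries of alveolar macrophages in 6 groups of 2. Per the labels' protocols, a Qiagen RNeasy Micro kit gave the RNA and a KAPA mRNA HyperPrep kit the libraries. The authors deposited raw counts for each gene. They also deposited a log2 table, each of whose columns equals log2(CPM + 1) of a count column with the same group label. The build mm9, TopHat2 and edgeR were used, per the submitters' processing notes, and no source used here gives the annotation, tool versions, counting program or strand setting.

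Counts were tested in R 4.3.3 with edgeR 4.0.16 (quasi-likelihood F test, TMM scaling, filterByExpr by group with a minimum count of 10 and a minimum total of 15). A single fit held all 12 libraries, with a coefficient for each group and 6 residual degrees of freedom. Benjamini-Hochberg adjustment ran over 12748 genes, with a threshold of 0.05. Counts at an unadjusted p under 0.05, by DESeq2 or by limma are given without the share of all genes under the same rule. An SE is that of a log2 fold change and an SD that of 2 libraries. A two-sided rank test of 2 libraries against 2 cannot give a p under 0.333. The code was tested on simulated counts. Total counts of 10409572 to 23233674 make 1 count worth at most 0.0904 CPM.

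The members and gene lists were chosen with earlier results of these data known. Values were given for the immunoproteasome genes, their 3 constitutive counterparts and members past the threshold (all if 8 or fewer, otherwise the 4 with the smallest p per direction). Without a call, the member with the smallest p in each direction was named, and from the other lists up to 4 members with the smallest p past the threshold. Tap1 and other genes outside this rule were named after their values were seen.

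Alternatives were DESeq2 1.42.0, its size factors in edgeR, no filter, a strict filter (5 CPM in 2 libraries), only the groups compared, a replicate block, exchange of the 10-week libraries in conflict, limma 3.58.1 on the log2 table and each library left out. Total counts as library sizes and a crossed 4-week pairing were added after seeing the data. Gene lengths and overlaps came from GENCODE vM21 and promoters from RefSeq, both on GRCm38, matched by symbol, and no mm9 coordinates were used. A list of ubiquitin and E1 genes and 1 promoter motif are not reported here.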

Additional observations from a re-analysis of the deposited data

Results flagged for a closer look

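For 5 of the 48 genes, both 10-week libraries labelled knockout lay on one side of both wild-type libraries. In these genes both 4-week libraries labelled knockout lay on the other side. Over all genes tested, 19.7% lay above and 20.9% below wild type without overlap at 10 weeks, and 24.0% and 24.6% at 4 weeks. The share of all genes on opposite sides at 10 and 4 weeks is not given, so these 5 genes have no background here. The difference between the 10-week and the 4-week knockout effect, on the log2 scale, was 0.11 for Psma4, -0.51 for Psma5, 0.30 for Psmb10, -1.36 for Psmc3ip and -0.21 for Psmc6. The interaction was tested for each of these genes in the edgeR fit and none of the 5 passed, the smallest adjusted p being 0.356 for Psma5.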

How the results depend on the processing

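The counts of called members moved as follows, without the share of all genes under each alternative. Knockout against wild type at 4 weeks gave 0 in the main analysis, 2 by DESeq2 and 2 with no filter (Psma5 and Psma6), 4 on the groups alone (with Psmb5 and Psmd1) and 1 with the crossed 4-week pairing (Psma6). Over both ages it gave 0, and 1 (Psma6) by DESeq2, with no filter and with the crossed pairing. Vitamin D3 gave 1 (Psme1), 0 on the groups alone, 2 by DESeq2 and after the exchange (with Psmb5), 2 with no filter (with Psmb9), 2 with the strict filter (with Psme2), and 3 with the replicate block and with the crossed pairing (with Psmb5, edgeR adjusted p = 0.0378 and 0.0199, and Psmb9, edgeR adjusted p = 0.0411 and 0.0299). Untreated culture gave 33 against 10-week wild type, 17 by limma (13 higher, 4 lower) and 16 by total counts (13 higher, 3 lower). Against 4-week wild type it gave 31, 17 by limma and 17 by total counts (11 higher, 6 lower each), and 20 with the crossed pairing. For 10 against 4 weeks in knockout it was 2, and 3 (with Psmg3) by DESeq2, with its size factors, with no filter and by limma. Limma on the log2 table and total counts both leave out TMM factors, and both reversed Psmd11 at 10 weeks (-0.013 and -0.011) and Psma1 at 4 weeks (-0.020 and -0.013), neither past the threshold there.

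With each library of a comparison left out in turn, the calls were 26 to 33 for culture against 10 weeks, 18 to 28 against 4 weeks (18 without wild-type replicate 2), 0 for vitamin D3, 0 to 2 for 10 against 4 weeks in knockout, 0 in the other genotype and age comparisons and 33 to 39 for any difference.

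Deviations of same-numbered replicates correlated by 0.12 at 10 weeks and -0.12 at 4 weeks. In culture, where the second libraries are numbered 3 with vitamin D3 and 2 without, libraries of 1 title series served as a block, and their deviations correlated by 0.27. Each value rests on 2 pairs, so the numbers are not shown to pair the samples. At 10 weeks the replicate number also separates the libraries that carried Xist from those that did not. With the replicate block, 24 members passed for culture against 10 weeks, 21 against 4 weeks, 26 for any difference, 2 for 10 against 4 weeks in knockout and 0 in the other genotype and age comparisons. The negative value at 4 weeks led to the crossed pairing.

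Of the members called in untreated culture, 13 kept their call in all 14 alternatives against 10 weeks and 11 against 4 weeks.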
